A study of Mus musculus with 4 samples.

Results

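The transcription factor NRF2, its repressor KEAP1, 5 of NRF2's best known target genes and the 3 metallothioneins Mt1, Mt2 and Mt3 were followed in mouse neural stem cells that had been driven toward the oligodendrocyte precursor (OPC) fate with or without knockdown of the long non-coding RNA lnc-OPC. The 10 genes (Nfe2l2, Keap1, Hmox1, Nqo1, Gclc, Gclm, Txnrd1, Mt1, Mt2 and Mt3) were taken by symbol, a choice made with earlier results of these data known, and each had 1 row among the 22608 genes of a table of raw read counts. Neural stem cells of CD-1 mice, taken from embryonic cerebral cortex and bought from a supplier, were kept in EGF and FGF (20 ng/ml each), infected with lentivirus that expressed a short hairpin RNA, and selected with puromycin. They were then given CNTF (20 ng/ml) and the thyroid hormone T3 (40 ng/ml) for 3 days, a treatment all 4 libraries shared. The 2 control libraries carried a hairpin against luciferase, and the 2 knockdown libraries carried a hairpin against lnc-OPC. Effects of either hairpin on other genes of the mouse were not checked. Both knockdown columns name the same hairpin, sh-lnc-OPC2, so the knockdown group rests on 1 hairpin, and the cells were sequenced as an unsorted culture. The libraries within a group are labelled biological replicates, but no separate animals or transductions are described, and the p-values below measure only the spread between these libraries.

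NRF2, the product of Nfe2l2, is made continuously and destroyed continuously in unstressed cells, because KEAP1 holds it on a ubiquitin ligase built on CUL3. Electrophiles and oxidants modify cysteines of KEAP1, NRF2 then escapes, pairs with a small Maf protein and binds antioxidant response elements (AREs) next to genes of glutathione synthesis, quinone reduction, thioredoxin reduction and heme breakdown. Metallothioneins are small cysteine-rich proteins that hold zinc and copper. Mt1 and Mt2 are switched on by metals through the zinc-sensing factor MTF1 at metal response elements (MREs) and also by glucocorticoids and cytokines, whereas Mt3 is found mainly in brain. In brain, both the NRF2 targets and the metallothioneins are known as genes of astrocytes more than of neurons. Much of the control of NRF2 acts on the protein, which RNA counts do not show.

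In the knockdown libraries, 7 of the 10 genes rose, 0 fell and 3 (Keap1, Nqo1 and Txnrd1) did not pass the test, an edgeR quasi-likelihood test with Benjamini-Hochberg adjustment over all 14090 genes tested and an adjusted p under 0.05 as the threshold. Nfe2l2 rose most (1.61-fold), then Hmox1 (1.44-fold), and the 3 metallothioneins rose by 1.26-fold to 1.32-fold. The comparison moved a large share of the transcriptome: 23.5% of all genes tested rose and 23.3% fell, 46.7% in all. The median log2 change of the 10 genes was 0.33, beside 0.0020 for the whole set. For 9 of the 10 genes the knockdown pair lay above the control pair and for Keap1 the pairs overlapped. Of all genes, 36.4% had the knockdown pair above and 36.2% below, 72.6% together. All 10 passed the filter on low counts, and 0 changed by more than 2-fold, as 1.56% of all genes did upward. In a bulk culture, a change in the number of cells of a type and a change in RNA per cell cannot be told apart.

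**Figure D1:**
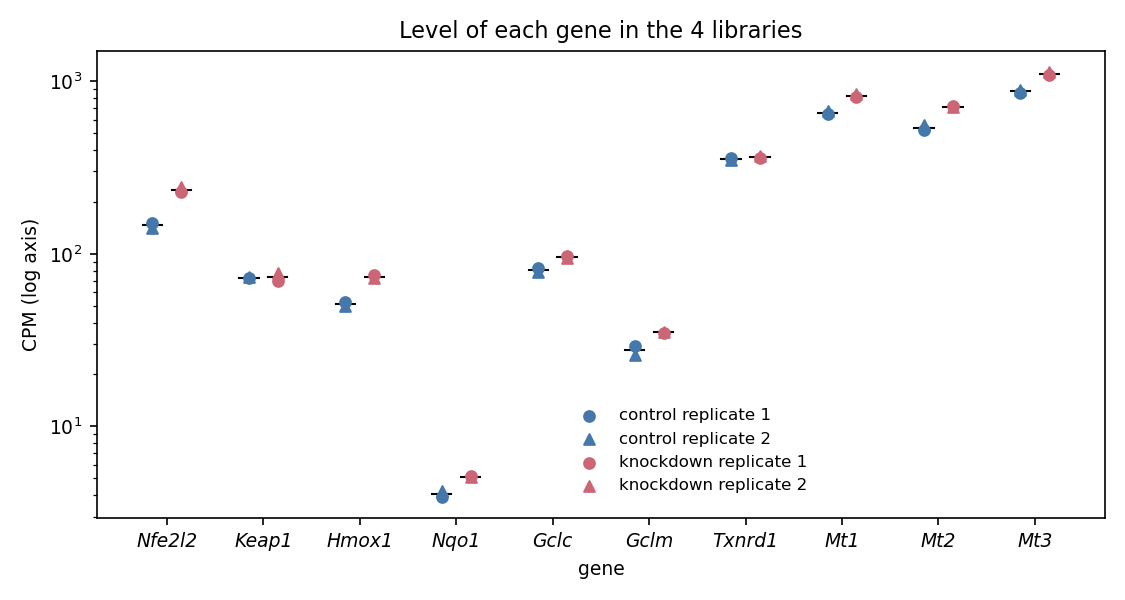
CPM (counts per 1000000 gene reads, y axis, log scale) of each of the 10 genes (x axis) in the 2 control (blue) and the 2 knockdown (red) libraries. Circles and triangles are replicates 1 and 2, and short lines are group means. The knockdown points lie above the control points for 9 genes, and those of Keap1 overlap.

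The libraries held 46144779 to 50098577 reads assigned to genes, and log2 levels correlated at 0.996 between the controls, 0.995 between the knockdown libraries and 0.984 to 0.986 across groups. Each replicate pair differed beyond counting noise (chi-square per degree of freedom 4.14 and 3.95), so none was the same set of reads deposited again, which does not show that the cultures were separate. No gene row is named for lnc-OPC (0 of 22608), which leaves the depletion of the RNA unchecked here and the grouping resting on the sample labels. Astrocyte markers summed to 9489 to 9782 CPM in the controls and 13652 to 13750 CPM in the knockdown libraries, and 9 of 14 tested rose and 3 fell. Oligodendrocyte lineage markers summed to 3615 to 3722 CPM in the controls and 2321 to 2416 CPM in the knockdown libraries, and 15 of 17 tested fell and 0 rose.

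Nfe2l2 stood at 151 and 141 CPM (counts per 1000000 gene reads) in the controls and at 227 and 243 CPM in the knockdown libraries. The knockdown libraries were both well above the controls, and the gap between groups was several times the gap within either. The means were 146 ± 6.75 and 235 ± 11.3 CPM (SD, n = 2 each), a log2 change of 0.68 ± 0.04 (SE; 95% interval 0.61 to 0.76; edgeR adjusted p = 9.0e-16), and 3.83% of all genes tested had a larger increase. Keap1 stood at 72.3 and 73.3 CPM in the controls and at 69.6 and 77.1 CPM in the knockdown libraries. The controls sat between the 2 knockdown libraries, and the log2 change was 0.01, with a 95% interval from -0.08 to 0.10 (edgeR adjusted p = 0.866). That interval leaves room for a Keap1 level 0.946 times to 1.07 times the control level, and the sign of the change turned when control replicate 1 (log2 change -0.00038) or knockdown replicate 2 (-0.07) was left out. Exons of Keap1 overlap those of the antisense gene Gm16754 over 510 bases (GENCODE M21), and as the library kit does not mark strand, reads of the pair cannot be told apart. The ratio of Nfe2l2 to Keap1 CPM within a library was 2.09 and 1.93 in the controls and 3.26 and 3.15 in the knockdown libraries. The ratio was thus higher in both knockdown libraries, a difference that was not tested.

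The stretch before the annotated start of Nfe2l2 itself holds an ARE match, and it is shown because the gene rose most. An ARE was searched as TGACNNNGC and an MRE as TGCACNC or TGCGCNC, on both strands, in the 300 bases from 250 before to 50 after each annotated RefSeq start (GRCm38.p6, a later build than that of the counts). Of all 32851 such windows in the genome, 12.4% hold at least 1 ARE match and 25.7% at least 1 MRE match. Windows were at hand for 8 of the 10 genes, all but Hmox1 and Gclc. The Nfe2l2 match begins 240 bases before the start (chr2:75704880-75704913, minus strand), in capitals below, and the window holds no MRE match. The Keap1 and Nqo1 windows hold neither motif. A match is a run of letters and not a binding site, and other starts of these genes were not searched.
Nfe2l2: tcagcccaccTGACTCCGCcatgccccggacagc

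**Figure D2:**
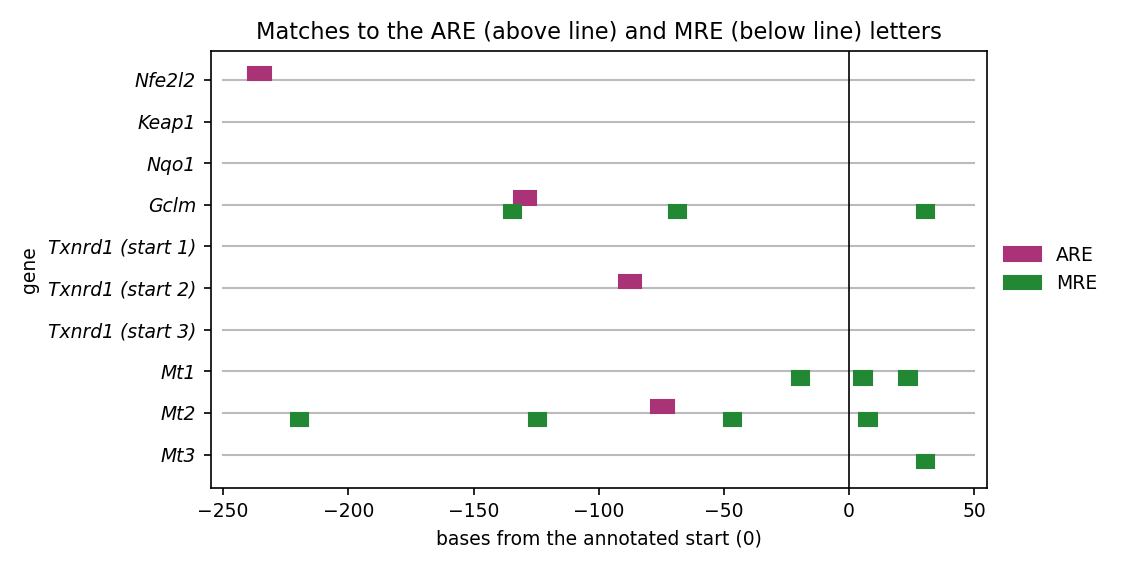
Positions of ARE and MRE letter matches (coloured blocks) along the promoter windows of the genes with a window (rows; Txnrd1 has 3 starts), in bases from the annotated start (x axis). The Mt2 window holds 4 MRE matches and 1 ARE match, and the Keap1 and Nqo1 windows hold none.

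Hmox1, which encodes the inducible heme oxygenase that opens heme to biliverdin, iron and carbon monoxide, stood at 52.6 and 49.8 CPM in the controls and at 75.5 and 72.2 CPM in the knockdown libraries. The groups did not overlap, and each pair lay close together. The means were 51.2 ± 2.02 and 73.9 ± 2.33 CPM (SD, n = 2 each), and the log2 change was 0.53 ± 0.04 (SE; 95% interval 0.44 to 0.62; edgeR adjusted p = 8.7e-12). Hmox2, the constitutive form, had means of 32.8 and 34.9 CPM and did not pass (log2 change 0.09, edgeR adjusted p = 0.214). The difference between both genes' changes was not tested. Nqo1, a quinone reductase and the usual reporter gene of NRF2 activity, had the fewest reads of the 10 genes: 3.92 and 4.24 CPM in the controls and 5.18 and 5.08 CPM in the knockdown libraries, from 197 and 198 reads against 254 and 251. Both knockdown libraries were higher, but the log2 change of 0.33 ± 0.15 (SE; 95% interval 0.03 to 0.63) had an edgeR adjusted p of 0.0643. A change up to 1.55-fold lies within that interval, so the result for Nqo1 is limited by its reads.

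Gclc and Gclm encode the catalytic and the modifier subunit of glutamate-cysteine ligase, which makes the first and rate-limiting step of glutathione synthesis. Gclc stood at 82.4 and 78.4 CPM in the controls and at 97.1 and 94.4 CPM in the knockdown libraries. Gclm stood at 29.2 and 26.1 CPM in the controls and at 34.7 and 35.4 CPM in the knockdown libraries. Both subunits were higher in both knockdown libraries, with no overlap. Gclc rose 1.19-fold (log2 change 0.25 ± 0.04, SE; edgeR adjusted p = 1.8e-06) and Gclm 1.27-fold (0.34 ± 0.06, SE; edgeR adjusted p = 2.0e-05). The ratio of Gclc to Gclm CPM was 2.82 and 3.00 in the controls and 2.79 and 2.67 in the knockdown libraries, close to but not overlapping, and was not tested. Exons of Gclm in GENCODE M21 overlap those of Gm17494 on the other strand and of the pseudogene Gm6061 and share 50-base stretches with many other genes, among genes with a count row most with Ppia. The counts of Gclm are thus uncertain by whatever reads these genes gave. Txnrd1, the cytosolic thioredoxin reductase, stood at 359 and 350.2 CPM in the controls and at 359.8 and 367 CPM in the knockdown libraries. The groups were nearly level: the log2 change was 0.04, with a 95% interval from -0.02 to 0.09 (edgeR adjusted p = 0.328), which limits an increase to 1.07-fold. At these counts (16365 to 18150 reads a library) a rise of the size of Nfe2l2 or Hmox1 lies outside the interval for Txnrd1.

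Gclm and Txnrd1 each have an ARE match on the minus strand, so the capitals show its complement read backward, and their pair of sequences is shown because Gclm rose and Txnrd1 did not pass. The Gclm match lies 134 bases before the start (chr3:122245408-122245446) and overlaps the first of 3 MRE matches in that window. The Txnrd1 match lies 92 bases before the second of its 3 annotated starts (chr10:82859099-82859137), and the windows of its other starts hold neither motif.
Gclm: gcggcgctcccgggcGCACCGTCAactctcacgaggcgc
Txnrd1: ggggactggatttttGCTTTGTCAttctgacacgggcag

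Mt1 stood at 642 and 673 CPM in the controls and at 805 and 847 CPM in the knockdown libraries. Mt2 stood at 522 and 556 CPM in the controls and at 718 and 705 CPM in the knockdown libraries. Mt3, known for its abundance in brain, stood at 860.4 and 895 CPM in the controls and at 1085 and 1131 CPM in the knockdown libraries. The groups stayed apart for all 3 genes, and the knockdown libraries were the higher ones each time. Mt2 rose 1.32-fold (log2 change 0.40 ± 0.03, SE; edgeR adjusted p = 3.3e-13), Mt3 1.26-fold (0.34 ± 0.03, SE; edgeR adjusted p = 1.1e-11) and Mt1 1.26-fold (0.33 ± 0.03, SE; edgeR adjusted p = 4.2e-11). Their reads together were 0.205% and 0.215% of all gene reads in the controls and 0.257% and 0.265% in the knockdown libraries. Mt1 and Mt3 kept a nearly fixed proportion: the ratio of Mt1 to Mt3 CPM was 0.747 and 0.753 in the controls and 0.743 and 0.749 in the knockdown libraries. The ratio of Mt1 to Mt2 CPM was 1.23 and 1.21 in the controls and 1.12 and 1.202 in the knockdown libraries. The longest exact run of bases shared by 2 of the 3 transcripts was 27 (Mt1 and Mt3), and Mt2 exons overlap those of the antisense gene Gm45774. Mt4, the epithelial member that neighbours Mt3 on chromosome 8, was at 0 reads in all 4 libraries.

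The windows of Mt2 (chr8:94172368-94172667) and Mt1 (chr8:94178839-94179138) are printed whole, plus strand, because both genes rose together and their matches lie in a row. Capitals mark motif matches, which for a match on the minus strand show the complement read backward. Mt2 holds 4 MRE matches, beginning 223, 128 and 50 bases before and 4 bases after the start, and 1 ARE match 79 bases before it whose first 7 letters are also the AP-1 motif TGACTCA (5.20% of all windows hold that motif). The Mt1 window holds 3 MRE matches, beginning 23 bases before and 2 and 20 bases after the start, and no ARE match. Mt1 sequence beyond this window was not searched. At least 3 MRE matches occur in 1.97% of all windows and at least 4 in 0.517%. Mt3 holds 1 MRE match, 27 bases after its start, and the 95% intervals of its log2 change (0.28 to 0.40) and of that of Mt1 (0.27 to 0.39) overlapped.
Mt2: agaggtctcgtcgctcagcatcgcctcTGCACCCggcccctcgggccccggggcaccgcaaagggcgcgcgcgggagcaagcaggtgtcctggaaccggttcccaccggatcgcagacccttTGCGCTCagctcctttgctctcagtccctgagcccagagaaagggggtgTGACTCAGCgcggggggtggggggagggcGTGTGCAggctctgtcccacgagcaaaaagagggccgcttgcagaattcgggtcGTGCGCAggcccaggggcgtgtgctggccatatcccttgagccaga
Mt1: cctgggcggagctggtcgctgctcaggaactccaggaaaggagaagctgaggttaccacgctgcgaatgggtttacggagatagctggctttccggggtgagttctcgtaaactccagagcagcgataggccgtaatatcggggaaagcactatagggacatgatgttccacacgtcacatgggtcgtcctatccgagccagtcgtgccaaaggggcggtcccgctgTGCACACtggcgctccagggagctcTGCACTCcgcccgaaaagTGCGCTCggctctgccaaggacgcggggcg

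**Figure D3:**
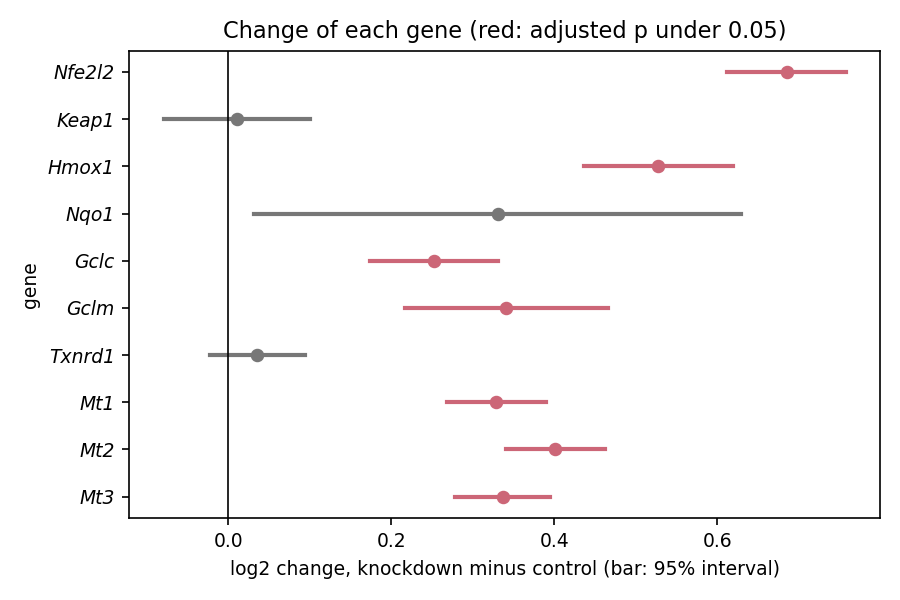
Fitted log2 change (x axis, knockdown minus control) of each of the 10 genes with its 95% interval, 2 libraries a group. Nfe2l2 (0.68) and Hmox1 (0.53) lie farthest right, and the intervals of Keap1 and Txnrd1 span 0.

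Levels of different genes were ranked only per length of exon. Per kilobase of exon, the controls ranked Mt2 (916 CPM per kb), Mt3 (823) and Mt1 (528) far above the others. Txnrd1 (49.4 and 50.7 in the 2 libraries), Nfe2l2 (38.5), Hmox1 (29.2), Gclc (21.3), Keap1 (15.5), Gclm (4.40) and Nqo1 (2.63) followed, and no 2 neighbours in this order overlapped between the control libraries. In the knockdown libraries Nfe2l2 (61.9 CPM per kb) stood above Txnrd1 (51.3), the one change of place. The order rests on exon lengths of a later annotation than that of the counts. Each length joins all annotated exons of a gene, 1246 bases for Mt1, 588 for Mt2 and 1066 for Mt3. Before this division the control means ran Mt3 (877 CPM), Mt1 (658 CPM) and Mt2 (539 CPM), so the order of these 3 genes depends on these lengths.

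Beyond the 10 genes, 11 lists of genes that share a role with them or answer other stresses were examined, 170 genes tested in all: 66 rose, 35 fell and 69 did not pass, and their median log2 change was 0.08. These shares, 38.8% higher and 20.6% lower, stand beside 23.5% and 23.3% of all genes tested. Among the partners of NRF2 and the proteins that turn it over, 2 of 14 rose and 7 fell (median log2 change -0.09). Nfe2l3, a relative of NRF2 in the same cap'n'collar family, stood at 5.82 and 4.67 CPM in the controls and at 1.16 and 0.586 CPM in the knockdown libraries, 5.99-fold lower (edgeR adjusted p = 9.5e-11). This relative of Nfe2l2 moved the other way, at a far lower read count. Crebbp, a coactivator of NRF2, fell 1.23-fold (edgeR adjusted p = 4.9e-08), and Gsk3b, a kinase that marks NRF2 for destruction, fell 1.14-fold (edgeR adjusted p = 1.2e-06). Sqstm1, the p62 protein that draws KEAP1 into autophagy and is itself an NRF2 target, rose 1.13-fold, from 251 ± 4.87 to 284 ± 2.94 CPM (edgeR adjusted p = 7.1e-06). The count of 2 that rose became 1 without control replicate 1 and without knockdown replicate 2. Cul3, chosen after its values were seen as the scaffold of the ligase, did not pass (128 and 133 CPM, log2 change 0.06, edgeR adjusted p = 0.129).

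**Figure D4:**
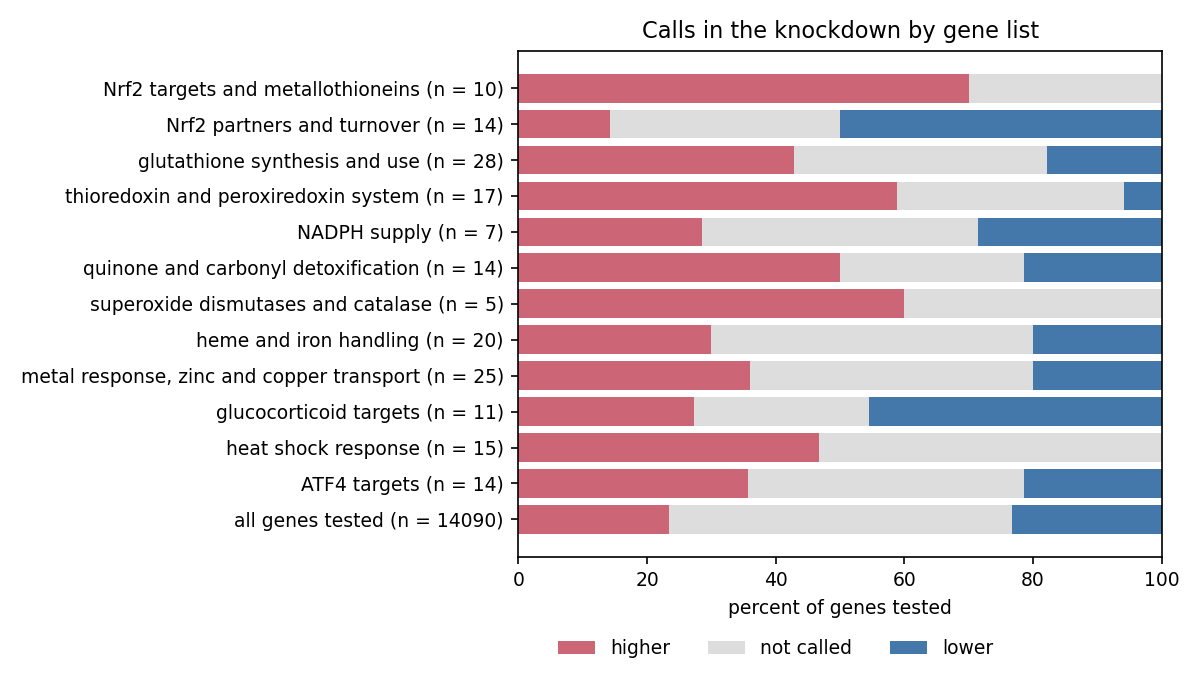
Percent of the tested genes (x axis) of each list (rows) that were called higher (red), not called (grey) or called lower (blue) in the knockdown libraries, with all genes tested in the bottom row. Of the 10 genes 70% were higher, beside 23.5% of all genes, and lower calls outnumber higher ones among the NRF2 partners (7 against 2).

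Of the genes of glutathione synthesis and use, 12 of 28 rose and 5 fell (median log2 change 0.12). Gstm1, a glutathione transferase, stood at 244 and 235 CPM in the controls and at 374 and 345 CPM in the knockdown libraries, 1.50-fold higher (edgeR adjusted p = 1.3e-14). Slc3a2, the heavy chain of the cystine importer, rose 1.26-fold (edgeR adjusted p = 2.3e-11) and the peroxidase Gpx8 1.20-fold (edgeR adjusted p = 9.0e-08), whereas the transferase Gsta4 fell 1.37-fold (edgeR adjusted p = 3.3e-11). Members of the transferase family thus moved both ways. The 12 became 6 without control replicate 2, and the 5 became 3 with either control library left out and 2 without knockdown replicate 1. Of the thioredoxin and peroxiredoxin system, 10 of 17 rose and 1 fell (median log2 change 0.11), with 5 and 0 without control replicate 1. Srxn1, the sulfiredoxin that restores oxidised peroxiredoxins, stood at 28.1 and 25.2 CPM in the controls and at 39.6 and 40.4 CPM in the knockdown libraries, 1.50-fold higher (edgeR adjusted p = 5.2e-10). Prdx6, a peroxidase that also acts on phospholipids, rose 1.23-fold, from 1512 ± 3.72 to 1862 ± 6.82 CPM (edgeR adjusted p = 2.1e-11). The sestrins Sesn2 (49.5 to 64.4 CPM, edgeR adjusted p = 1.4e-08) and Sesn1 (59.2 to 73.4 CPM, edgeR adjusted p = 1.9e-07) rose, whereas the third sestrin, Sesn3, was the 1 gene of the list that fell (88.7 to 79.9 CPM, edgeR adjusted p = 0.0026; named after its values were seen).

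Of the genes that detoxify quinones and carbonyls, 7 of 14 rose and 3 fell (median log2 change 0.23), and 2 rose more than 2-fold. Ephx1, the microsomal epoxide hydrolase, stood at 107 and 101 CPM in the controls and at 205 and 215 CPM in the knockdown libraries, 2.02-fold higher (edgeR adjusted p = 3.3e-22). Osgin1, an oxidative stress-induced growth inhibitor, stood at 1.25 and 1.73 CPM in the controls and at 5.47 and 6.19 CPM in the knockdown libraries, 3.91-fold higher (edgeR adjusted p = 7.9e-11). Both moved farther than any of the 10 genes. Ugdh, which makes UDP-glucuronate, fell 1.52-fold (edgeR adjusted p = 1.2e-15), and the mitochondrial aldehyde dehydrogenase Aldh2 fell 1.32-fold (edgeR adjusted p = 2.1e-10). Of the superoxide dismutases and catalase, 3 of 5 rose and 0 fell (median log2 change 0.30): Cat rose 1.23-fold (edgeR adjusted p = 4.6e-10), Sod3 1.36-fold (edgeR adjusted p = 3.0e-06) and Sod1 1.23-fold (edgeR adjusted p = 0.00013). Of the enzymes that supply NADPH, 2 of 7 rose and 2 fell (median log2 change 0.06), beside 23.5% and 23.3% of all genes tested. G6pdx, the entry enzyme of the pentose phosphate pathway, rose 1.21-fold (edgeR adjusted p = 4.7e-07). The calls of Taldo1 (higher) and of Me1 and Idh1 (lower) were each lost when some library was left out: 1 rose with control replicate 1, control replicate 2 or knockdown replicate 2 left out, and 1 fell with either control left out and 0 without knockdown replicate 1.

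**Figure D5:**
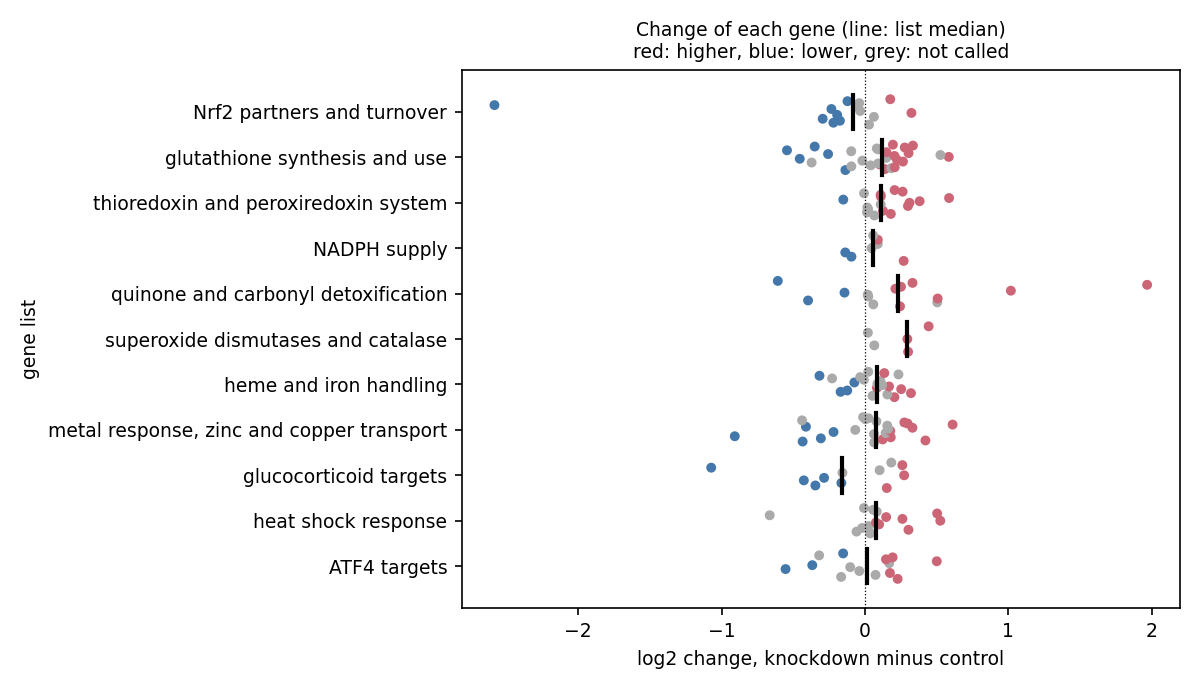
Fitted log2 change (x axis, knockdown minus control) of every tested gene of the 11 lists (rows); black lines are list medians, and red, blue and grey points are genes called higher, called lower and not called. The medians lie between -0.16 (glucocorticoid targets) and 0.30 (superoxide dismutases and catalase), and Nfe2l3 lies farthest left at -2.58.

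Of the genes of heme and iron handling, 6 of 20 rose and 4 fell (median log2 change 0.09). Over all genes tested, 23.5% rose and 23.3% fell, so this list lay close to the whole set. Fth1, the ferritin heavy chain, rose 1.19-fold, from 1361 ± 8.75 to 1621 ± 17.9 CPM (edgeR adjusted p = 1.3e-09). Aco1, an iron regulatory protein, rose 1.15-fold (edgeR adjusted p = 1.9e-06). Ireb2, another iron regulatory protein, named after its values were seen, fell 1.05-fold (edgeR adjusted p = 0.0448). Tfrc, the transferrin receptor, fell 1.25-fold (edgeR adjusted p = 3.1e-06). Ferritin and transferrin receptor thus moved in opposite directions. The 6 became 2 without control replicate 1 or knockdown replicate 2 and 3 without control replicate 2, and the 4 became 2 with any 1 of these libraries left out. The call of Fech, which inserts iron into heme and was 1.09-fold lower, was lost without control replicate 2 and without knockdown replicate 1. Of the genes of metal response and of zinc and copper transport, 9 of 25 rose and 5 fell (median log2 change 0.08). Slc39a12, a zinc importer of brain, stood at 108 and 103 CPM in the controls and at 163 and 159.7 CPM in the knockdown libraries, 1.53-fold higher (edgeR adjusted p = 2.5e-16). Slc39a1, another zinc importer, rose 1.26-fold (edgeR adjusted p = 9.5e-12). The zinc transporters moved both ways. The copper pumps parted: Atp7b rose 1.34-fold (edgeR adjusted p = 4.5e-10) and Atp7a fell 1.35-fold (edgeR adjusted p = 6.1e-10). The next 4 genes were chosen after their values were seen. Mtf1 itself rose 1.09-fold (edgeR adjusted p = 0.0197) and Slc30a1, the zinc exporter that MTF1 is known to drive, 1.13-fold (edgeR adjusted p = 0.00059). Slc39a10, a further zinc importer, fell 1.33-fold (edgeR adjusted p = 7.7e-10), and Slc30a10, a manganese exporter, fell 1.88-fold, the widest change of the list (edgeR adjusted p = 3.7e-08).

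Among lists of other inputs to the same genes, the glucocorticoid and ATF4 lists moved both ways, whereas 0 heat shock genes fell. The whole set of genes tested also moved both ways, 23.5% higher and 23.3% lower. Of the glucocorticoid targets, 3 of 11 rose and 5 fell (median log2 change -0.16; 3 fell without control replicate 2). Sgk1, a kinase induced by glucocorticoids, fell from 48.6 ± 4.81 CPM to 23.1 ± 1.51 CPM, or 2.10-fold (edgeR adjusted p = 2.9e-14), and Klf9 fell 1.34-fold (edgeR adjusted p = 3.9e-08). Nr3c1, the glucocorticoid receptor, rose 1.21-fold (edgeR adjusted p = 4.7e-07). Nr3c1 is 1 of the 3 that rose. The other two were Cebpd (1.11-fold, edgeR adjusted p = 0.00060, a call lost without control replicate 1) and Tsc22d3, the GILZ gene, named after its values were seen (1.198-fold, edgeR adjusted p = 0.0017), so the targets moved both ways. Of the heat shock genes, 7 of 15 rose and 0 fell (median log2 change 0.08; 4 rose without control replicate 2), led by Hspb8 (1.42-fold, edgeR adjusted p = 4.4e-15) and Dnaja1 (1.23-fold, edgeR adjusted p = 2.9e-08). Of the targets of ATF4, the factor of the amino acid and unfolded protein responses, 5 of 14 rose and 3 fell, and the median (0.02) and mean (-0.02) log2 changes differed in sign. Phgdh, the entry enzyme of serine synthesis, rose 1.41-fold (edgeR adjusted p = 5.4e-10), and Ddit4, a stress-induced inhibitor of mTORC1, fell 1.29-fold (edgeR adjusted p = 3.1e-11).

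Markers of the cell types this culture could hold moved with the groups, and their part in the changes of the 10 genes was not tested. Gfap, the intermediate filament of astrocytes, stood at 699.6 and 772 CPM in the controls and at 2301 and 2415 CPM in the knockdown libraries (3.20-fold higher, edgeR adjusted p = 3.0e-12). The connexin gene Gja1 rose 3.26-fold (edgeR adjusted p = 2.7e-30) and the glutamate transporter gene Slc1a2 2.49-fold (edgeR adjusted p = 1.3e-24), whereas S100b fell 3.12-fold (edgeR adjusted p = 8.8e-16). These astrocyte genes moved farther than any of the 10 genes, but most markers of the list did not. Mlc1 rose 1.58-fold (edgeR adjusted p = 6.1e-20), less than Nfe2l2. Of the 14 astrocyte markers tested, 9 rose and 3 fell. Those named next were chosen after their values were seen. Aqp4 fell 1.15-fold (edgeR adjusted p = 1.8e-07) and Sox9 1.15-fold (edgeR adjusted p = 4.8e-07), and Aldh1l1 and Fgfr3 did not pass. Of the lineage genes that define the labelled OPC fate, Olig2 fell 1.33-fold and Sox10 1.84-fold, to 397 ± 1.42 and 48.3 ± 3.76 CPM (edgeR adjusted p = 1.2e-13 and 3.9e-17), so both were still detected. Markers of microglia, cells that can carry Hmox1, were few: 4 of 15 passed the filter, 0 were called, their sum was 92.5 to 95.3 CPM in the controls and 88.2 to 90.6 CPM in the knockdown libraries, and Cx3cr1, Tmem119, C1qa, C1qb, C1qc and Tyrobp were at 0 reads in all 4. Endothelial and mural markers summed to 558 to 593 CPM in the controls and 283.5 to 284 CPM in the knockdown libraries. Acta2 gave the largest part of that sum (means 346 and 134 CPM). Only 6 of the 12 listed passed the filter, 5 of them lower, and Cdh5 and Cldn5 were at 0 reads. Pdgfrb fell most, 20.4-fold, from 8.74 to 0.426 CPM (edgeR adjusted p = 4.5e-18). Neuronal markers summed to 1186 to 1220 CPM in the controls and 1320 to 1331 CPM in the knockdown libraries, with 6 of 10 tested higher and 2 lower.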

How the data were processed

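RNA (100 ng a library) was sequenced from 2 control and 2 knockdown TruSeq libraries, polyA-selected and unstranded. Per the submitters' processing notes, the authors used TopHat 1.3.3, Bowtie 0.12.7, SAMtools 0.1.18 and HTSeq 0.6.1 on build mm9; the annotation release and strand setting are not given in these sources. The deposited values used here are raw read counts per gene, not normalised. Rows of the table that name no gene (not unique, outside genes, ambiguous) held 31.8% to 33.5% of listed reads and were left out of library sizes; reads that were not unique made up 10.7% to 11.2%. Near-identical genes can lose such reads. The authors' own comparison (DESeq fold changes and p-values) and gene ontology p-values were not used.

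Genes were filtered with filterByExpr (minimum count 10, total 15; 14090 of 22608 kept), scaled by TMM and tested with edgeR 4.0.16 (limma 3.58.1, R 4.3.3) by robust quasi-likelihood fits with group as the only term, Benjamini-Hochberg adjusted over all genes tested. CPM values are per 1000000 gene reads after TMM scaling, and intervals are 95%. Alternatives were DESeq2 1.42.0 size factors, upper-quartile scaling, the DESeq2 Wald test, no filter, no robust moderation, a replicate block and leaving out each library. The 10 genes and all lists were chosen with earlier results of these data known. Named are the 10 genes and, per list, up to 4 called genes of smallest adjusted p plus called changes over 2-fold; others are marked as chosen after their values were seen, as are Hmox2 and Mt4, or are cell markers at 0 reads.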

Additional observations from a re-analysis of the deposited data

How the results depend on the processing

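All 7 calls among the 10 genes, and 0 lower calls, held under each of the 10 alternatives, as did the absence of a call for Nqo1 (adjusted p 0.0581 to 0.231), Txnrd1 (0.225 to 0.714) and Keap1. The log2 change of Keap1 turned sign without control replicate 1 (-0.00038) and without knockdown replicate 2 (-0.066); over the 4 fits that leave out 1 library it ranged from -0.066 to 0.082. Over the same fits Nfe2l2 ranged from 0.63 to 0.73, Hmox1 from 0.49 to 0.57, Gclc from 0.22 to 0.29, Gclm from 0.26 to 0.43, Mt1 from 0.29 to 0.36, Mt2 from 0.36 to 0.45 and Mt3 from 0.31 to 0.37; a group of 1 library is there assumed to vary like the other. Same-numbered libraries did not deviate together (correlation 0.0538 over 14090 genes, 2 pairs), so the numbers were not taken as a pairing; with the replicate block 7 of the 10 genes stayed higher, and 3404 genes in all were higher and 3377 lower, against 3309 and 3276. Of the 32 list counts, 12 moved by over 1.5 times under some alternative. Those from leaving out a library stand with the lists. With the DESeq2 Wald test, higher calls fell from 2 to 1 for NRF2 partners, from 12 to 6 for glutathione, from 2 to 1 for NADPH and from 6 to 3 for heme and iron, and lower calls from 5 to 3 for glutathione, from 4 to 1 for heme and iron and from 5 to 3 for glucocorticoid targets. The microglial count of lower calls was 0, and 1 without control replicate 1 or knockdown replicate 1. Of 70 named list genes 8 lost their call under some alternative and 0 turned direction. With 2 libraries a group and 1 hairpin, small changes of low genes such as Nqo1 (197 to 254 reads) are the least certain.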
